A study of Mus musculus with 9 samples.

Results

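Nuclear receptors are transcription factors that bind small lipophilic molecules, and 10 of their genes that govern liver metabolism are described here across 9 mouse livers. The genes are Ppara, Ppard, Pparg, Rxra, Nr1i3, Nr1i2, Nr1h3, Nr1h4, Nr0b2 and Hnf4a. They were chosen by name, and a gene was represented by the probe set with the highest mean signal over the 9 arrays among those assigned to it alone. All 10 had such a probe set, among 18193 genes on the array that did. All 10 also passed the filter on dim signals, as did 12466 genes in all, and each of the 10 had a signal above it on all 9 arrays. The mice were female Crlj:CD1(ICR), an outbred stock, bought at 9 weeks of age and quarantined for 1 week. For 2 weeks they ate a powdered diet with nothing added (control), with 5000 ppm permethrin or with 5000 ppm clofibrate, 3 mice per diet and 1 array per mouse. Permethrin is a pyrethroid insecticide, and clofibrate is a fibrate drug that activates PPAR alpha. The descriptions of the treated samples speak of rats, while all other labels and the array are of mouse. The question was whether the mRNA of the receptors themselves differed between the diets.

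Most of these receptors bind DNA as a heterodimer with RXR, and their classical response elements are repeats of a hexamer close to AGGTCA. PPARs sense fatty acids and fibrates, CAR and PXR sense foreign chemicals, LXR senses oxysterols and FXR senses bile acids. SHP is an atypical member that lacks the DNA-binding domain and represses others, and HNF4 alpha is a master regulator of hepatocyte genes. Much of their activity is set by ligand binding, by movement between cytosol and nucleus and by coregulators, so that a receptor can act without any difference in its own mRNA.

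RefSeq start-site windows of the GRCm38.p6 build, from 250 bases before to 50 after each start, were found for all 10 genes, 15 windows in all. AGGTCA on either strand was in 4 of the 15, belonging to Rxra, Pparg and Nr1h4, and in 16.3% of all 32851 windows of this length in the table. The direct repeat of that hexamer with 1 base between the copies was in 0 of the 15 and in 0.0396% of all windows, and the HNF4 alpha core CAAAGTCCA in 0 of the 15 and in 0.475% of all. The GC box GGGCGG was in 7 of the 15, of 6 genes, and in 35.7% of all windows. The window of Ppard is shown because Ppard is the member that passed the test, with its 3 GC boxes in capitals. Shown after it are the 4 windows with the receptor hexamer, with both motifs in capitals, AGGTCA or its complement TGACCT and GGGCGG or its complement CCGCCC. A match is only a description of the letters, and none of these motifs overlaps another in the windows shown.
Ppard, chr17:28232504-28232803, plus strand: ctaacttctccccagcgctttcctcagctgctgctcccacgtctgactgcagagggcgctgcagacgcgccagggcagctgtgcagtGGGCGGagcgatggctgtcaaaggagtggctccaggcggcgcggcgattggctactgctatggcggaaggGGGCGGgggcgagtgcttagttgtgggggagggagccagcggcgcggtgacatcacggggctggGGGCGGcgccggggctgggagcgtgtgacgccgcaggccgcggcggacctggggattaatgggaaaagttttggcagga
Pparg, chr6:115360894-115361193, plus strand: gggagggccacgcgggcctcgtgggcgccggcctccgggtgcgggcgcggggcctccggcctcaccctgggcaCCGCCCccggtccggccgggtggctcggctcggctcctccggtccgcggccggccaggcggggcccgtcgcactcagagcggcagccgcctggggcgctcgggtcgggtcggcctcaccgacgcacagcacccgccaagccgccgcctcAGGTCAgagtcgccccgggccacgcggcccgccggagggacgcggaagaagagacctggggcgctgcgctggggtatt
Pparg, chr6:115362099-115362398, plus strand: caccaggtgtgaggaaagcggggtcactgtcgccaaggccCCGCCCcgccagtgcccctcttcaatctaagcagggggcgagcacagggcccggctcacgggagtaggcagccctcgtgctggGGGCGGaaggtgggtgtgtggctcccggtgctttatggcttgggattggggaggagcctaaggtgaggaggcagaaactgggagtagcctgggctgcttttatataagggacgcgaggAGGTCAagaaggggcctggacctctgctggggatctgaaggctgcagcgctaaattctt
Rxra, chr2:27709042-27709341, plus strand: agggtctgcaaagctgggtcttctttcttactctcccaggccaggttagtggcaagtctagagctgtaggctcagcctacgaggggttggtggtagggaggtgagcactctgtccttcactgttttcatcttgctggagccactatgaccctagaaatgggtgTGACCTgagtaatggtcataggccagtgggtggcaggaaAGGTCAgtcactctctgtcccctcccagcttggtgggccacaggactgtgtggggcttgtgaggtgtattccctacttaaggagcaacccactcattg
Nr1h4, chr10:89506609-89506908, minus strand: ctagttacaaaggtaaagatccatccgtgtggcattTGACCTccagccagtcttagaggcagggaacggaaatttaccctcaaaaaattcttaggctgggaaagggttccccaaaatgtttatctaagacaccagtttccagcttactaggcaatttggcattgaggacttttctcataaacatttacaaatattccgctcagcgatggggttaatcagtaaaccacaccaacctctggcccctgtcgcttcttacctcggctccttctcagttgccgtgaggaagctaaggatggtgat

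The windows differ in base composition. The upstream start of Rxra lies in a window of 83.0% G and C with 55 CpG dinucleotides and 4 GC boxes, and that of Pparg shown first in one of 80.3% with 44 CpG. The windows of Ppara and Ppard hold 74.7% and 68.3% G and C. The single windows of Nr1i2, Nr1h4, Nr0b2 and Nr1i3 lie between 45.3% and 54.0%, and the median of all windows is 52.7%. The array values were not tied to any one start site, so no signal can be assigned to a window.

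Across the 10 receptors, 1 passed the test in 1 comparison: Ppard fell with clofibrate. That is 0 higher and 1 lower of 10, where 3.22% of the 12466 tested genes were called higher and 3.80% lower, 7.03% in all (limma, Benjamini-Hochberg adjusted p below 0.05 over all tested probe sets). With permethrin 0 of 10 were called, where 1.28% of all genes were called higher and 0.850% lower, 2.13% in all. Between permethrin and clofibrate 0 of 10 were called, where 0.473% of all genes were higher and 0.265% lower with permethrin, 0.738% in all. The median absolute log2 change of the receptors was 0.25 with permethrin and 0.34 with clofibrate, and that of all tested genes 0.20 and 0.22.

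Unadjusted p-values below 0.05 were read against the same background. With permethrin 2 of 10 receptors had one, Pparg at a higher and Rxra at a lower mean, where 15.8% of all genes had one. With clofibrate 5 of 10 had one, where 21.0% of all genes did. Of these Ppara and Nr1i3 had higher means, and Ppard, Rxra and Hnf4a lower means. The other tested probe sets of Ppara and Rxra had no such p-value, and a dimmer set of Hnf4a had one at a higher mean. Between the treated groups 3 of 10 had one, Ppara, Ppard and Hnf4a, where 13.0% of all genes did.

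**Figure D1:**
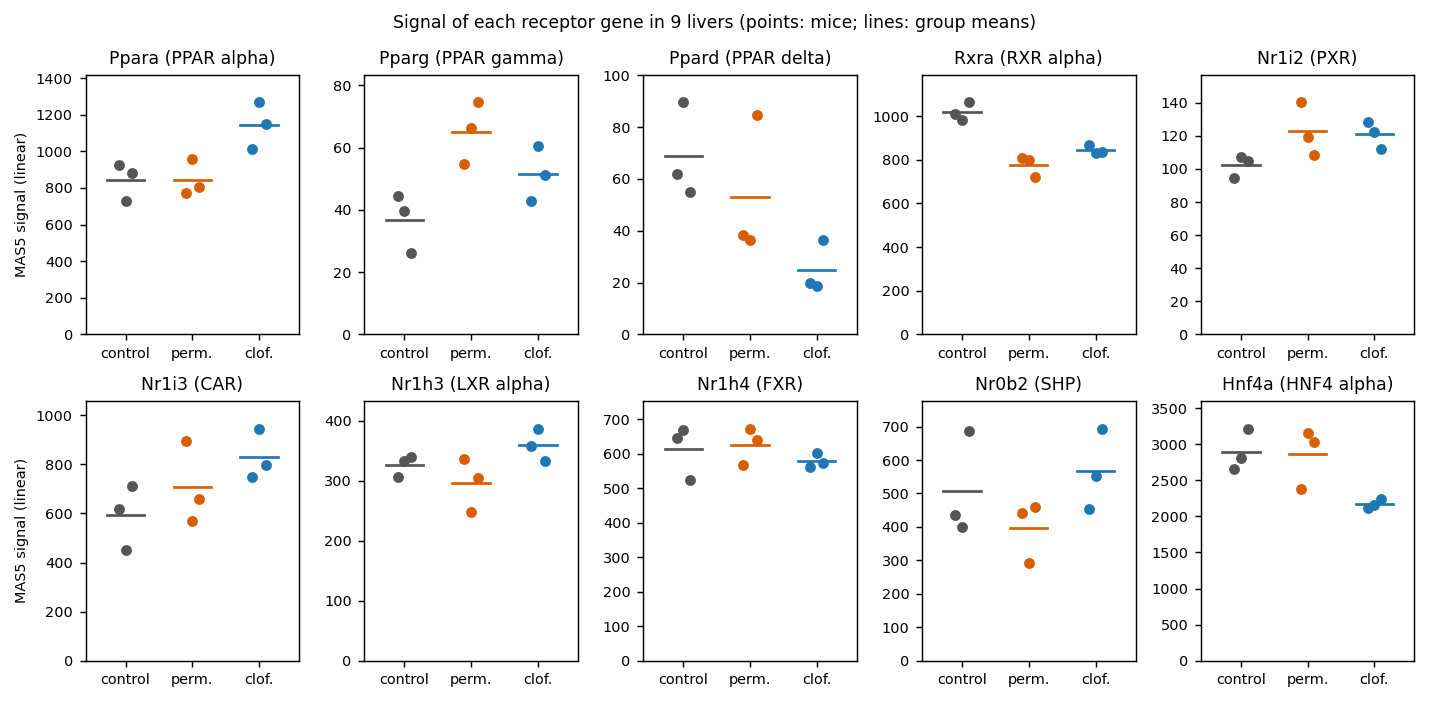
Linear MAS5 signal (vertical axes, each from 0) of the 10 receptor genes in each of 9 mice, grouped by diet (perm., permethrin; clof., clofibrate); points are mice and lines are group means of 3. In the probe sets shown, the brightest of each gene, the clofibrate mice lie below all controls for Ppard, Rxra and Hnf4a. They lie above all controls for Ppara, Nr1i2 and Nr1i3.

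Full separation of treated from control arrays, with no overlap of 3 against 3, was seen with clofibrate for 6 of 10 receptors. Of these 3 were higher and 3 lower, where 11.6% of all tested genes were higher in this way and 15.6% lower, 27.2% in all. These counts take the brightest probe set of each gene. The other tested sets of Ppara, Rxra and Hnf4a overlapped control with clofibrate, and that of Nr1i2 did not. With permethrin 2 were higher and 1 lower, where 9.53% of all genes were higher and 13.2% lower, 22.7% in all. Between the treated groups 1 was higher and 2 lower with permethrin, where 9.08% and 9.02% were, 18.1% in all. The 95% interval of the log2 change lay within 2-fold in both directions for 8 of 10 receptors with permethrin and for 9 of 10 with clofibrate. The exceptions were Pparg and Ppard with permethrin, and Ppard with clofibrate.

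Some measures of the arrays moved with the groups. Median signals were 13.4 to 17.9, each array had been scaled to a trimmed mean of 100.001, and log2 signals correlated at 0.959 to 0.966 within groups and at 0.952 to 0.963 between groups, across probe sets. For the ribosomal RNA probe sets the mean signal was 129 to 168 in the control arrays, against 38.0 to 88.8 with permethrin and 58.3 to 78.1 with clofibrate. When the arrays were scaled to the hybridization controls instead, RNAs added in fixed amounts, the median gene shifted in log2 by 0.15 with permethrin and by 0.33 with clofibrate. Summed signals of hepatocyte markers, 7 of 8 tested, were 62020 to 66030 in the control arrays, against 55370 to 60350 with permethrin and 41990 to 55920 with clofibrate. Those of endothelial markers, 8 of 8 tested, were 2293 to 2464, 2035 to 2193 and 1794 to 1865 in the same order. Those of stellate cell markers, 8 of 8 tested, were 2792 to 3430, 2271 to 2500 and 2099 to 2784, and those of Kupffer cell markers, 8 of 8 tested, 2908 to 3387, 2453 to 5158 and 2689 to 3815. Such sums follow their brightest genes, Clec4g among the endothelial and Dcn, Reln and Ecm1 among the stellate markers. Median log2 changes with permethrin and clofibrate were -0.16 and -0.40 for hepatocyte and -0.18 and -0.35 for endothelial markers. They were -0.04 and -0.14 for stellate and 0.14 and -0.03 for Kupffer cell markers, and -0.04 in both for all tested genes. Of the markers in these 4 lists 0 were called with permethrin and 3, all hepatocyte genes that were lower, with clofibrate. The part of these measures in the receptor values was not tested.

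**Figure D2:**
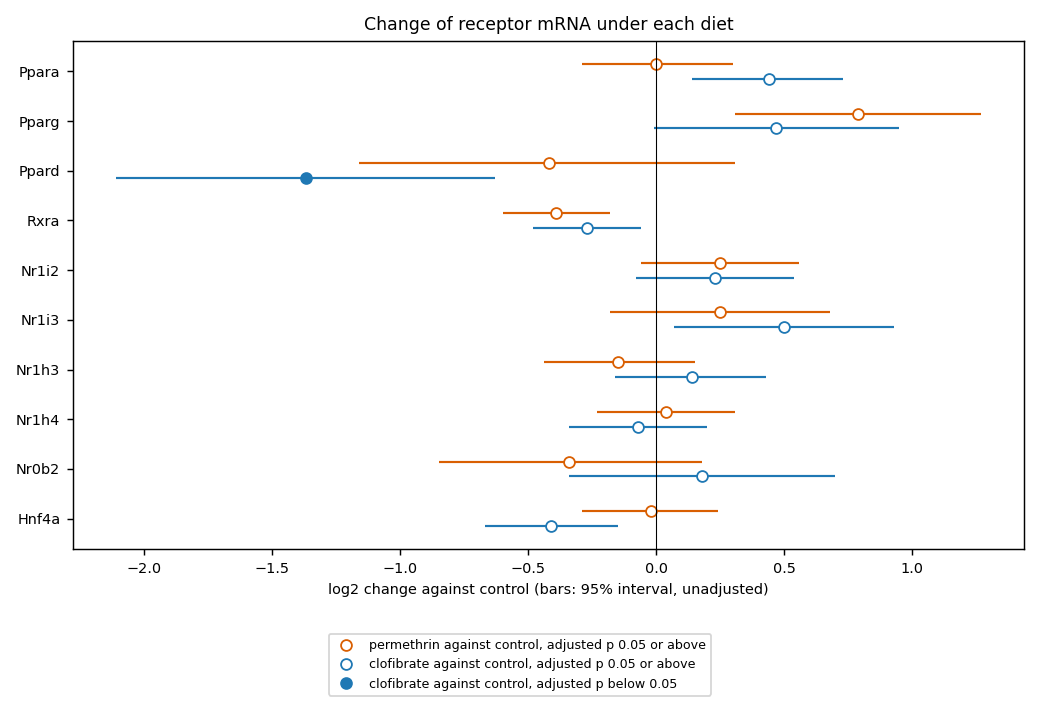
Log2 change of each receptor's mRNA against control (horizontal axis) with permethrin (orange) and clofibrate (blue); bars are unadjusted 95% intervals, and filled points passed an adjusted p of 0.05. The 1 filled point is Ppard with clofibrate, at -1.37.

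Ppard encodes PPAR delta, a widely expressed fatty acid sensor that promotes fat oxidation. Signals were 61.8, 89.5 and 55.1 in the control mice, 38.5, 36.4 and 84.8 in the permethrin mice, and 19.7, 18.8 and 36.6 in the clofibrate mice. All clofibrate arrays lay below all controls, the permethrin arrays overlapped both other groups, and 1 permethrin mouse was as high as the controls. The clofibrate mean was 25.0 ± 10.03 and the control mean 68.8 ± 18.3 (SD, n = 3), so that Ppard fell 2.59-fold, by a log2 value of -1.37 ± 0.34 (SE, limma adjusted p = 0.0373). An absolute change of that size or more was seen in 1.68% of all tested genes. In RNA of whole liver, fewer cells of a type and less RNA per cell cannot be told apart.

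The permethrin mean of Ppard was 53.2 ± 27.3 (SD, n = 3), a log2 change against control of -0.42 with an interval of -1.16 to 0.31 (limma adjusted p = 0.633). Between permethrin and clofibrate the difference was 0.95, with an interval of 0.21 to 1.69 (limma adjusted p = 0.287), so the diets were not shown to differ in Ppard. The order of the means was control, permethrin, clofibrate, and neither neighbouring pair differed by the test. The other probe set of Ppard gave signals from 0.709 to 1.69 on the 9 arrays, below the filter of 15.6, and was not tested. A further probe set shared with another gene was not used.

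The value for Ppard stayed negative in 18 of 18 alternative settings, between -1.65 and -1.04, and lost its call in 9 of them. Leaving out any 1 control array raised the adjusted p to between 0.0661 and 0.135, and leaving out clofibrate replicate 1 or 2 raised it to 0.0934 and 0.115, while without clofibrate replicate 3 it was 0.0339. Without the intensity trend in the variance model the adjusted p was 0.0927, with no filter on dim probe sets 0.0631, after centring of the arrays on their medians 0.0685, and 0.103 where they were scaled to the hybridization controls.

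**Figure D3:**
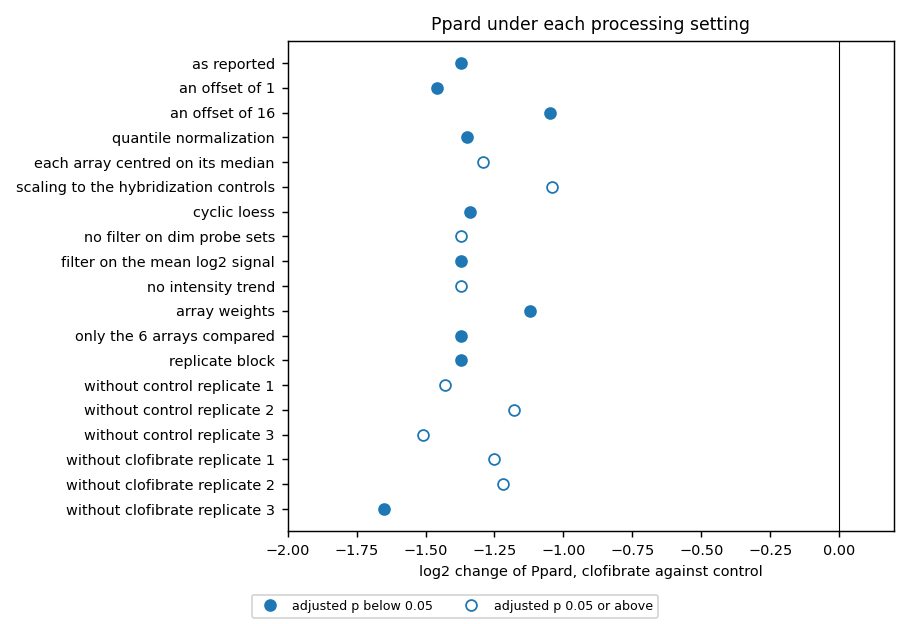
Log2 change of Ppard with clofibrate against control (horizontal axis) as reported and under each alternative setting (rows); filled points have an adjusted p below 0.05. The values lie between -1.65 and -1.04, and 9 of the 18 alternatives are open points.

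The genes whose log2 signal followed Ppard most closely over the 9 arrays were Tmie (Pearson r = 0.965), Ctrc (0.953) and Psmb10 (0.946), out of 12465 compared. These genes were picked as the highest of all these correlations, as a description with no test. They share the 9 arrays and the group differences, and the deviations from group means alone gave 0.936, 0.879 and 0.986. Ctrc encodes a digestive protease of pancreas. Its signals were 15.5, 21.3 and 16.1 in the control arrays, 9.42, 13.6 and 17.8 with permethrin and 7.79, 6.60 and 11.9 with clofibrate. Most of these lay below the filter of 15.6. Of 8 pancreas acinar markers 6 had a probe set, and their summed signal was 1182 to 1491 in the control arrays, against 204 to 337 with permethrin and 242 to 280 with clofibrate. Most of it was Cela1 in each group, with means of 1295, 207 and 200 for control, permethrin and clofibrate, and the other 5 summed to 65.7 to 106 in the control arrays, against 39.4 to 64.6 with permethrin and 62.4 to 70.2 with clofibrate. Cpa1 and Ctrb1, which define acinar cells, had group means of 1.46 to 4.93, below the filter. The part of pancreas RNA in the Ppard values was not tested.

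Ppara encodes PPAR alpha, the receptor through which fibrates act on liver fat oxidation. In the control mice its signals were 923, 727 and 881, in the permethrin mice 772, 956 and 804, and in the clofibrate mice 1012, 1267 and 1150. Permethrin and control overlapped, and every clofibrate array lay above both. With permethrin the mean of 844 ± 98.3 was equal to the control mean of 844 ± 104 (SD, n = 3), a log2 change of 0.00 with an interval of -0.29 to 0.30 (limma adjusted p = 0.996). With clofibrate the mean was 1143 ± 128 (SD, n = 3), 1.36-fold above control, a log2 difference of 0.44 ± 0.13 (SE, limma adjusted p = 0.0888). Clofibrate exceeded permethrin by about as much, a difference of 0.44 in log2 with the interval of permethrin against clofibrate at -0.73 to -0.14 (limma adjusted p = 0.213).

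The 3 probe sets of Ppara gave different values, and the set with the next highest mean had group means of 964, 898 and 951 for control, permethrin and clofibrate. With clofibrate the log2 changes were 0.44 for the brightest, 0.13 (adjusted p = 0.714, limma) and -0.03 (adjusted p = 0.966, limma) for the others, and the mean over the 3 gave 0.18. The call of Ppara also depended on the scaling. Under scaling to the hybridization controls the log2 change with clofibrate was 0.77 (limma adjusted p = 0.004), in a setting where the median gene stood at 0.29, and with array weights it was 0.46 (limma adjusted p = 0.0293).

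Pparg encodes PPAR gamma, the regulator of fat storage that is abundant in adipose tissue and scarce in normal liver. It gave 44.5, 39.5 and 26.2 in the control mice, 54.6, 66.2 and 74.5 in the permethrin mice, and 42.9, 60.5 and 51.3 in the clofibrate mice. All permethrin arrays lay above all controls, and the lowest clofibrate array lay among the controls. The permethrin mean was 65.1 ± 10.01 and the control mean 36.8 ± 9.47 (SD, n = 3), a log2 difference of 0.79 ± 0.22 (SE), or 1.73-fold, which did not pass (limma adjusted p = 0.118). An absolute change of this size or more was seen in 4.93% of all tested genes. With clofibrate the mean was 51.6 ± 8.80 (SD, n = 3), and the log2 difference of 0.47 had an interval of -0.01 to 0.95 (limma adjusted p = 0.276).

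The Pparg difference with permethrin kept its sign and stayed uncalled in 19 of 19 settings, with log2 values between 0.58 and 0.94 and adjusted p between 0.0865 and 0.325. Permethrin against clofibrate gave 0.32 with an interval of -0.16 to 0.80 (limma adjusted p = 0.611). The genes closest to Pparg over the 9 arrays were Txn1 (r = 0.960), Ces1e (0.953) and Mybbp1a (0.941). Of the adipocyte markers, 2 of 5 with a probe set passed the filter, and Adipoq, which defines fat cells, had a mean signal of 7.23 in the control arrays, 4.34 with permethrin and 8.74 with clofibrate, below the filter. The summed adipocyte list was 11530 to 12900 in the control arrays, against 10500 to 10580 with permethrin and 8041 to 10650 with clofibrate, and most of it was Car3, which hepatocytes also express.

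Rxra encodes RXR alpha, the shared partner of PPARs, CAR, PXR, LXR and FXR and the main RXR of liver. Its control signals were 1011, 981 and 1063, its permethrin signals 809, 801 and 721, and its clofibrate signals 868, 833 and 835. The 3 groups did not overlap, with controls highest and permethrin lowest. The coefficient of variation within a group was 2.34% to 6.26%. Permethrin was 1.31-fold below control, a log2 difference of -0.39 ± 0.10 (SE, limma adjusted p = 0.0783), and clofibrate 1.204-fold below, a difference of -0.27 ± 0.10 (SE, limma adjusted p = 0.148). Both differences missed the threshold, and an absolute change as large as that with permethrin or larger was seen in 22.6% of all tested genes. Between the treated groups the difference was -0.12 with an interval of -0.33 to 0.09 (limma adjusted p = 0.666).

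The other tested probe set of Rxra gave no such order. Its means were 137 ± 18.6 in the control arrays, 129 ± 6.84 with permethrin and 148 ± 10.7 with clofibrate (SD, n = 3), log2 changes of -0.07 and 0.11. Under scaling to the hybridization controls the brightest set gave -0.24 with permethrin (limma adjusted p = 0.664) and 0.07 with clofibrate (limma adjusted p = 0.823). In that setting the median gene itself stood at 0.10 and 0.29. The scaling shifts all genes of an array alike, so it cannot change the place of Rxra relative to the median gene. The other RXR genes, Rxrb and Rxrg, had log2 changes of 0.14 and 0.16 with permethrin and of 0.18 and -0.20 with clofibrate, and 0 of these 4 values passed.

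Nr1i3 encodes CAR, which is held in the cytosol and moves to the nucleus when phenobarbital-like compounds act. The control mice had signals of 618, 453 and 711, the permethrin mice 895, 569 and 659, and the clofibrate mice 748, 945 and 798. Permethrin overlapped control, and all clofibrate arrays lay above all controls. With permethrin the mean was 708 ± 168 against 594 ± 131 (SD, n = 3), a log2 difference of 0.25 with an interval of -0.18 to 0.68 (limma adjusted p = 0.624). With clofibrate it was 830 ± 102 (SD, n = 3), a difference of 0.50 ± 0.19 (SE, limma adjusted p = 0.184). Permethrin against clofibrate was -0.25 (limma adjusted p = 0.664). Under scaling to the hybridization controls, where the median gene stood at 0.29 with clofibrate, the clofibrate difference from control was 0.83 (limma adjusted p = 0.0329).

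Nr1i2 encodes PXR, the sensor that controls Cyp3a genes. Its control signals were 94.8, 107 and 105, its permethrin signals 140, 119 and 108, and its clofibrate signals 128, 122 and 112. Every treated array lay above every control, by a narrow margin in the lowest permethrin mouse. The log2 differences were 0.25 ± 0.14 with permethrin (SE, limma adjusted p = 0.489) and 0.23 ± 0.14 with clofibrate (SE, limma adjusted p = 0.425), and between the treated groups 0.02 with an interval of -0.30 to 0.33. The other probe set of Nr1i2 pointed the same way, at 0.29 with permethrin and 0.41 with clofibrate (limma adjusted p = 0.543 and 0.262).

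Nr1h3 encodes LXR alpha, which drives cholesterol efflux and lipogenesis. Control signals were 307, 332 and 339, its permethrin signals 335, 249 and 304, and its clofibrate signals 359, 387 and 332. All 3 groups overlapped. The log2 differences against control were -0.15 with permethrin, with an interval of -0.44 to 0.15 (limma adjusted p = 0.684), and 0.14 with clofibrate, with an interval of -0.16 to 0.43 (limma adjusted p = 0.651). Permethrin against clofibrate gave -0.28 with an interval of -0.58 to 0.01 (limma adjusted p = 0.430).

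Nr1h4 encodes FXR, the bile acid receptor. Its control signals were 647, 669 and 523, its permethrin signals 566, 672 and 641, and its clofibrate signals 561, 602 and 574. The control range spanned all but the highest permethrin array. Its log2 changes were 0.04 with permethrin, with an interval of -0.23 to 0.31, and -0.07 with clofibrate, with an interval of -0.34 to 0.20 (limma adjusted p = 0.935 and 0.809). Under scaling to the hybridization controls, which shifts all genes of an array alike, the clofibrate value was 0.26 and the median gene stood at 0.29.

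Nr0b2 encodes SHP, a target of FXR that represses bile acid synthesis. Signals of the controls were 436, 400 and 686, its permethrin signals 442, 293 and 458, and its clofibrate signals 454, 553 and 694. The groups overlapped, and the control group alone spanned most of the range, with a coefficient of variation of 30.8%. The log2 changes were -0.34 ± 0.24 with permethrin and 0.18 ± 0.24 with clofibrate (SE, limma adjusted p = 0.585 and 0.747). Permethrin against clofibrate gave -0.52 with an interval of -1.03 to 0.00 (limma adjusted p = 0.415). Over the 9 arrays Slc25a22 (r = 0.976), Ldha (0.939) and Smdt1 (0.914) were closest to Nr0b2, and for deviations from group means the values were 0.976, 0.961 and 0.954.

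Hnf4a encodes HNF4 alpha. Its brightest probe set had control signals of 2663, 2802 and 3215, permethrin signals of 2381, 3161 and 3035, and clofibrate signals of 2112, 2161 and 2240. All clofibrate arrays lay below all arrays of the other groups, and permethrin and control overlapped. The clofibrate mean was 2171 ± 64.5 against 2893 ± 287 in controls (SD, n = 3), 1.33-fold lower, a log2 difference of -0.41 ± 0.12 (SE, limma adjusted p = 0.0757). The permethrin value was -0.02 with an interval of -0.29 to 0.24 (limma adjusted p = 0.958), and permethrin against clofibrate was 0.39 ± 0.12 (SE, limma adjusted p = 0.219).

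The 4 probe sets of Hnf4a went in different directions with clofibrate. The log2 changes were -0.41, -0.04, 0.12 and 0.55 in order of falling mean signal, and 0 passed the test. The mean over the 4 sets gave 0.06 (limma adjusted p = 0.881), scaling to the hybridization controls, with the median gene at 0.29, -0.08 (limma adjusted p = 0.757) and array weights -0.38 (limma adjusted p = 0.0403). With permethrin the 4 sets lay between -0.17 and 0.19.

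**Figure D4:**
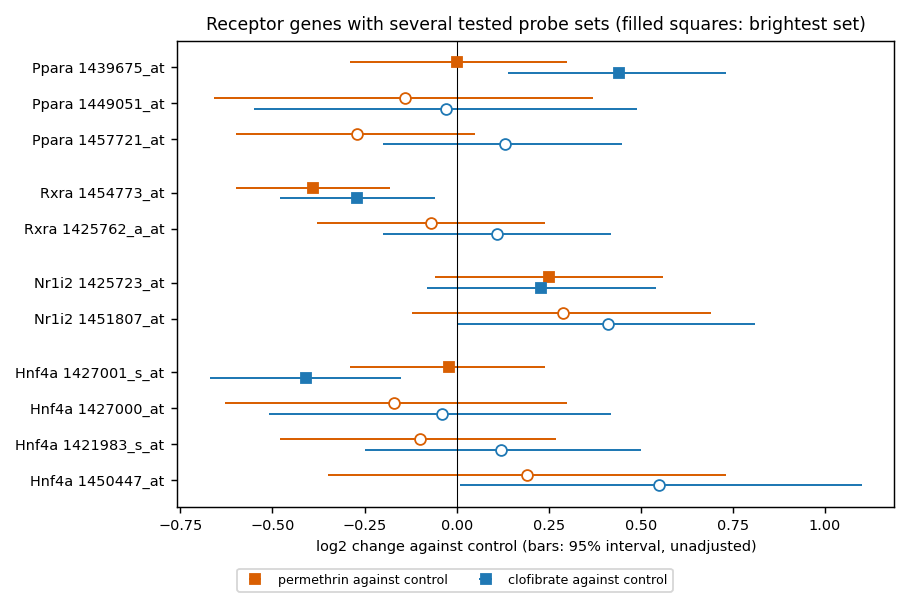
Log2 change against control (horizontal axis) for every tested probe set of the 4 receptor genes with more than 1, with permethrin (orange) and clofibrate (blue); bars are unadjusted 95% intervals and filled squares mark the brightest set. With clofibrate the sets of Hnf4a run from -0.41 to 0.55 and those of Ppara from -0.03 to 0.44, and 0 of the sets shown passed the test.

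Targets of the receptors were compared with the receptors by lists of known target genes, described by counts. For every such list the background was that of all tested genes. With permethrin 1.28% of them were called higher and 0.850% lower, and with clofibrate 3.22% and 3.80%. Among 28 tested PPAR alpha targets 18 were higher and 0 lower with permethrin, with a median log2 change of 0.97, while Ppara stood at 0.00. With clofibrate 24 were higher and 1, the fatty acid binding protein gene Fabp1, lower, with a median of 1.44, while Ppara stood at 0.44. The control mean of Fabp1 was 13580, near the highest signals of the control arrays, and the highest signals were lower with clofibrate. The median of all tested genes was -0.04 in both comparisons. The largest changes with permethrin included Cyp4a12a, a fatty acid hydroxylase, at 3.67, and Vnn1, a pantetheinase, at 3.50. Cyp4a14 rose by 2.16 with clofibrate (limma adjusted p = 0.0497) and stood at 2.23 with permethrin (limma adjusted p = 0.0863). Pdk4, which restrains glucose oxidation, rose by 1.96 and 2.28 with permethrin and clofibrate (limma adjusted p = 0.0135 and 0.00218). Cpt1a, the gate of mitochondrial fat oxidation, rose by 0.71 with clofibrate (limma adjusted p = 0.00859) and stood at 0.05 with permethrin. Of the 7 tested PPAR gamma targets 3 rose with permethrin and 5 with clofibrate, and 0 fell. Those that rose with both were Cd36 (3.64 and 4.49), Mogat1 (3.16 and 4.97) and Lpl (2.68 and 2.96). The control mean of Mogat1 was 15.5, below the filter. The list medians of 2.35 and 2.62 were the values of 1 gene, Cidec. The fat droplet gene Cidec stood at 2.35 with permethrin (limma adjusted p = 0.108) and rose by 2.62 with clofibrate (limma adjusted p = 0.0368), from control signals of 5.28 ± 3.46 (SD, n = 3) that lie below the filter, so the size depends on the offset. Fabp4 stood at 0.15 and 0.49, and neither value passed. Many of these genes respond to more than 1 PPAR, so a list does not tell the receptors apart.

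**Figure D5:**
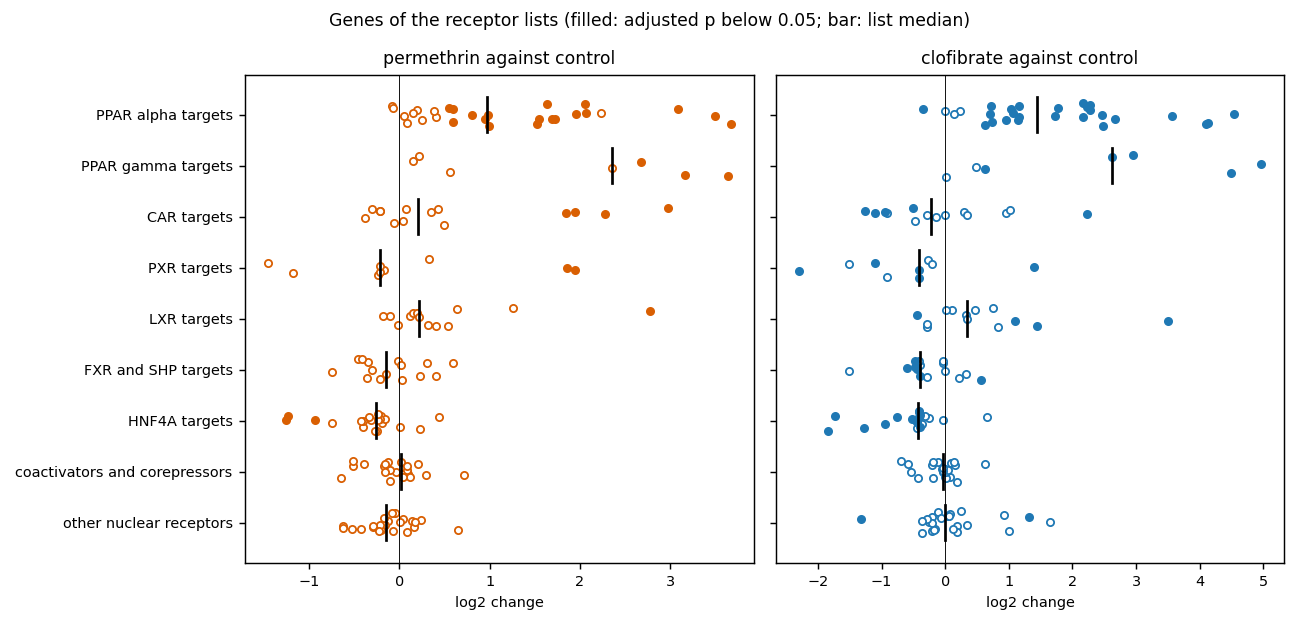
Log2 change against control (horizontal axis) of the tested genes of 9 lists (rows), with permethrin on the left and clofibrate on the right; each point is a gene, filled where the adjusted p was below 0.05, and black bars are list medians. PPAR alpha targets have medians of 0.97 and 1.44, and the coactivators and corepressors 0.02 and -0.04.

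Among the drug-metabolism genes the diets differed in part of the targets of CAR and PXR. Of 14 tested CAR targets 4 rose and 0 fell with permethrin, and 1 rose and 4 fell with clofibrate, while Nr1i3 stood at 0.25 and 0.50. Between permethrin and clofibrate 5 of the 14 were higher with permethrin and 0 lower, where 0.473% and 0.265% of all genes were. Cyp2b10, the standard CAR marker, had a mean of 836 ± 234 in the control arrays, rose with permethrin to 3985 ± 310 and fell with clofibrate to 342 ± 53.4 (SD, n = 3; limma adjusted p = 8.44e-05 and 0.00212). Cyp2c55 rose by 1.95 in log2 with permethrin and stood at -0.92 with clofibrate (limma adjusted p = 0.00422 and 0.0742). Abcc4, with the largest change of the CAR list, rose with both diets, by 2.97 and 2.23 (limma adjusted p = 1.74e-04 and 5.67e-04). Of 9 tested PXR targets 2 rose with permethrin, Cyp2c55 and Cyp3a13, and 0 fell, and 1 rose and 4 fell with clofibrate, while Nr1i2 stood at 0.25 and 0.23. The largest called change was that of Slco1a4, at -2.3 with clofibrate (limma adjusted p = 7.38e-04). With permethrin Slco1a4 stood at -1.18 (limma adjusted p = 0.0670). Cyp3a11, the main PXR-controlled cytochrome of mouse liver, was at -0.17 with permethrin (limma adjusted p = 0.481) and fell by 0.41 with clofibrate (limma adjusted p = 0.0280). Its control mean was 11300, and the highest signals of the arrays, given above, were also lower with clofibrate. Abcb1a, an efflux pump, was at -0.21 in both. Cyp2c55 and Ces2a are in both lists, and relatives within these families may be read by one probe set.

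Targets of the sterol and bile acid receptors were next compared. Of 13 tested LXR targets 1, the phospholipid transfer protein gene Pltp, rose with permethrin and 0 fell, and 3 rose and 1 fell with clofibrate. Abca1, the cholesterol efflux pump, stood at 0.12 and 0.11, and Srebf1, the lipogenic factor, at 0.20 and -0.29. Of 15 FXR and SHP targets 0 passed with permethrin, and with clofibrate 1 rose, the phospholipid pump gene Abcb4, and 5 fell. SHP is a repressor, so rises and falls in this pooled list give no single direction of receptor activity. Slc10a1, the bile acid uptake carrier, fell by 0.60 with clofibrate (limma adjusted p = 0.00528). Abcb11, the bile salt export pump, stood at -0.46 and -0.39 (limma adjusted p = 0.140 and 0.132). Cyp7a1, the rate-limiting enzyme of bile acid synthesis, stood at 0.41 and 0.32 with an SE of 0.51, and Cyp8b1 at 0.23 and -0.03. None of these last 3 genes passed.

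HNF4 alpha targets were lower in part. Of 20 tested, 3 fell and 0 rose with permethrin, with a median of -0.26, where 0.850% of all genes fell. With clofibrate 13 fell and 0 rose, with a median of -0.42, where 3.80% of all genes fell. The largest falls were those of Pklr, liver pyruvate kinase, at -1.26 with permethrin and -1.85 with clofibrate, and of Apoa4, an apolipoprotein, at -1.23 and -1.74. Apob stood at 0.01 and -0.25 (limma adjusted p = 0.986 and 0.224). The summed hepatocyte markers given above, of which 3 of the 7 tested (Apoa1, Ttr and Tat) are also in this list, were lower in the same groups. So were the highest signals of the arrays, and the list holds bright genes such as Apoa1, with a control mean of 14050. The part of either in the list was not tested.

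Other nuclear receptors and coregulators were counted in the same way. Of 24 tested other nuclear receptors 0 passed with permethrin, where 2.13% of all tested genes did. With clofibrate 1 rose and 1 fell, where 3.22% of all genes rose and 3.80% fell. These counts do not set the list apart from all genes. The estrogen receptor gene Esr1 fell from 602 ± 74.8 to 241 ± 54.6, and Esrrg, an estrogen-related receptor, rose from 28.6 ± 3.78 to 75.4 ± 7.70 (SD, n = 3; limma adjusted p = 0.00212 and 0.00726). Of 23 tested coactivators and corepressors 0 passed with either diet, where 2.13% and 7.03% of all genes did. The medians of these coregulators were 0.02 and -0.04. Among them Ppargc1a, a coactivator of PPAR alpha and HNF4 alpha, stood at -0.65 and -0.58 with an SE of 0.26 (limma adjusted p = 0.298 and 0.262).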

How the data were processed

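RNA from 9 mouse livers was hybridized to Affymetrix arrays, 1 per mouse. The authors deposited 1 linear MAS5 signal intensity per probe set and array, per the labels and the submitters' processing notes; of the MAS5 version and settings, nothing is given in the sources used here. Of 45101 probe sets, 64 were array controls, 34945 had 1 gene symbol, 932 several and 9160 none here. Symbols were updated through Entrez identifiers for 34741. Before log2, 3.35 was added to every signal (the 20 percent quantile over all arrays), and fold changes are on that scale. A probe set was tested where its signal exceeded 15.6, the median of all signals, on at least 3 arrays, which left 24546.

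All 9 arrays entered 1 limma model (limma 3.58.1, R 4.3.3) with a mean per group and moderated statistics with an intensity trend, checked on simulated data. Tests were two-sided, adjusted by Benjamini-Hochberg over the 24546 probe sets per comparison, with a threshold of 0.05. The permethrin and clofibrate comparisons share their 3 controls. With 3 arrays per group, the number of arrays limits the precision, and no batch was known.

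The members, gene lists and motifs were chosen with earlier results of these data known. The naming rule took all 10 receptors, up to 4 called genes of a list with the largest changes, a set of standard targets, and for the 3 receptors with the largest changes the 3 genes with the highest correlation over the 9 arrays. Fabp1, Adipoq, Cpa1, Ctrb1, Ttr, Tat, Rxrb and Rxrg were named after their values were seen. Alternatives covered the offset, normalization, filter, variance model, array weights, arrays in the model, probe sets per gene, the replicate number as a block, and each array left out in turn. Promoter windows came from RefSeq, GRCm38.p6.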

Additional observations from a re-analysis of the deposited data

How the results depend on the processing

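Over 22 alternative settings, the log2 changes of the 10 receptors were recomputed 567 times. Of these, 17 turned direction, 9 lost a call, 4 gained one, and 537 were counted as unchanged. A value that rounded to 0.00, as reported or in the alternative, was not counted as turned. Ppara with permethrin, reported at 0.00, was thus counted as unchanged while it ranged from -0.14 to 0.15 (lowest limma adjusted p = 0.542). The 9 losses were all Ppard with clofibrate, as given above. The 4 gains were Ppara and Nr1i3 under scaling to the hybridization controls and Ppara and Hnf4a with array weights. With clofibrate the number of receptors called was 1; it was 0 with each array centred on its median, with no filter, with no intensity trend and with the mean of all probe sets, where Ppard itself was too dim to be tested, 2 under scaling to the hybridization controls, 3 with array weights, and 0 to 1 when 1 array was left out. With permethrin, and between the treated groups, it was 0 in all 19 settings each.

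None of the turned values passed the threshold, and scaling to the hybridization controls (control scaling) put the median gene itself at 0.10, 0.29 and -0.19 for permethrin, clofibrate and permethrin against clofibrate. For permethrin against control, Hnf4a turned to 0.01 with quantile normalization, 0.08 with centring and 0.12 with control scaling, and ranged from -0.10 to 0.10 when 1 array was left out; Nr1h4 ranged from -0.07 to 0.11. For clofibrate, Nr1h4 turned to 0.01 with centring and 0.26 with control scaling, Rxra to 0.07 with control scaling and Hnf4a to 0.06 with the mean of all probe sets. For permethrin against clofibrate, control scaling gave -0.17 for Nr1i2 and -0.08 for Nr1h4, the mean of all probe sets gave -0.05 for Nr1i2 and -0.08 for Hnf4a, and Nr1i2 ranged from -0.08 to 0.10 when 1 array was left out.

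Counts over all genes moved more. The permethrin count of 266 (160 higher, 106 lower) was 143 (117 and 26) with centring, 165 (143 and 22) with control scaling, 80 (62 and 18) with no intensity trend and 108 to 189 when 1 array was left out. The clofibrate count of 876 (402 higher, 474 lower) was 487 (305 and 182) with centring, 397 (219 and 178) with no intensity trend, 1496 with array weights and 430 to 828 when 1 array was left out; control scaling gave 1123 (1034 and 89). The count between treated groups, 92 (59 higher, 33 lower), was 33 with centring, 43 (9 and 34) with control scaling, 10 with no intensity trend, 226 with array weights, 48 with only the 6 arrays compared, and 17 to 119 when 1 array was left out. The cause of these shifts was not tested.

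Nothing in the labels ties mice of the same number together, and the correlations of their deviations from the group means ran from -0.109 to 0.113. With the replicate number as a block the counts were 205, 726 and 63, the number of receptors called was 0, 1 and 0, and Ppard stood at -1.37 with clofibrate (limma adjusted p = 0.0403).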

Other observations

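Part of the genes that handle retinoids, the source of RXR ligands, changed. Of 15 tested, 3 rose and 1 fell with permethrin, where 1.28% of all genes rose and 0.850% fell. With clofibrate 2 rose and 2 fell, where 3.22% and 3.80% of all genes did. Retsat, a retinol saturase, rose from 2399 ± 297 in controls to 5225 ± 183 with permethrin and 6257 ± 765 with clofibrate (SD, n = 3), and Rdh16, a retinol dehydrogenase, from 332 ± 37.7 to 705 ± 54.3 and 1297 ± 354 (SD, n = 3). Stra6l, a membrane receptor for retinol-binding protein, fell from 1684 ± 91.8 to 1062 ± 90.4 and 799 ± 42.8 (SD, n = 3).

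Among 10 tested partners and kinases of CAR and PPAR in the cytosol, the chaperone gene Hsp90aa1 rose with permethrin from 3466 ± 283 to 5436 ± 514, and Egfr, the growth factor receptor through which phenobarbital acts on CAR, fell with clofibrate from 1326 ± 117 to 593 ± 110 (SD, n = 3; limma adjusted p = 0.0166 and 0.0336). Among 16 tested liver-enriched transcription factors, Foxa3 fell with permethrin from 485 ± 164 to 214 ± 5.83 (SD, n = 3, limma adjusted p = 0.0433). Atf5 fell with permethrin from 1471 ± 196 to 899 ± 22.4 (SD, n = 3, limma adjusted p = 0.0169). With clofibrate 0 of the 16 were called, where 7.03% of all tested genes were.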
